A study of Mus musculus with 40 samples.

Results

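The 10 genes Gfap, Aqp4, Slc1a2, Slc1a3, Aldh1l1, S100b, Gja1, Glul, Agt and Aldoc are widely used to recognise astrocytes in brain RNA. They were taken by name from a list of astrocyte genes, are 10 of the 55471 genes of the count table, and all 10 were among the 18441 genes abundant enough to test. RNA was sequenced from tissue punched out of the ventral tegmental area of adult mice, a part of the midbrain known for its dopamine neurons. The 40 libraries form 8 groups of 5, by strain (C57/Bl6, written C57, or DBA), sex, and rearing. Repeated cross-fostered animals (RCF) came from litters given to a new adoptive mother every day from postnatal day 1 to 4, and the unhandled controls did not. No transgene or drug is named for any group. Which animal or litter each library came from is not labelled, and the p-values therefore rest on the spread among libraries, part of which may be technical. The questions were whether the astrocyte genes differed with rearing, strain or sex, and which of them moved with the region content of the punch and which were steady.

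Astrocytes take up glutamate and potassium released by neurons, supply neurons with glutamine and lactate, and wrap blood vessels with end-feet. Slc1a2 (GLT-1) and Slc1a3 (GLAST) encode the glutamate transporters of the astrocyte membrane, and Glul encodes glutamine synthetase, which turns the glutamate into glutamine. Aqp4 encodes the water channel of the end-feet, Gja1 the gap junction protein connexin 43, Gfap an intermediate filament protein that rises in reactive astrocytes, S100b a calcium-binding protein, Agt angiotensinogen, Aldoc aldolase C of glycolysis, and Aldh1l1 a folate-pathway dehydrogenase. Astrocytes are known to differ between brain regions, and Gfap and Agt are among the genes that differ. S100b and Glul are also made by oligodendrocytes, so a level of either in bulk tissue is not that of astrocytes alone.

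Levels are given in CPM, read counts relative to library size with TMM scaling between libraries, which held 16913124 to 28179071 counts each. Dopamine content varied widely within groups: Th, the tyrosine hydroxylase gene of dopamine neurons, was between 0.725 and 1644 CPM. Slc17a7, a glutamate transporter gene of cortex and hippocampus, was above 400 CPM in 4 libraries and at most 97.3 CPM in the other 36. These were the libraries labelled C57 male control replicate 1 (1223 CPM) and replicate 5 (503 CPM), DBA female control replicate 3 (1312 CPM) and C57 female RCF replicate 4 (1076 CPM). The library labelled C57 male control replicate 5 also carried genes of the DBA type, with a median of 26.4% of their DBA level over 73 such genes, against at most 2.80% in any other library. Sex genes matched the labels in 20 of 20 female and 20 of 20 male libraries.

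Per kilobase of exon, Glul was the most abundant of the 10 genes, with a mean of 371.5 CPM per kb over the 40 libraries, followed by Aldoc at 331, Agt at 152, Slc1a2 at 141 and S100b at 116. Slc1a3 (49.1 CPM per kb), Aqp4 (34.5), Gfap (28.8), Gja1 (27.1) and Aldh1l1 (16.1) were lower. Each gene's range over libraries overlapped that of its neighbours in this order. The lengths came from annotated exons, without knowledge of which transcripts were made, so the order is approximate.

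Gfap varied far more than the rest. Its level ran from 10.2 to 567 CPM, a 55.5-fold range, and its standard deviation (SD) within groups was 1.40 on the log2 scale, above that of 99.1% of the genes tested and of 99.7% of the 10337 genes with a mean of at least 10 CPM. Aqp4 came next, with a range from 92.8 to 514 CPM and an SD of 0.51, above 94.6% of genes of at least 10 CPM. S100b (87.0 to 353 CPM) and Agt (113 to 429 CPM) each had an SD of 0.36. Slc1a3 (207 to 625 CPM, SD 0.28), Slc1a2 (934 to 2968 CPM, SD 0.27) and Glul (504 to 2097 CPM, SD 0.25) were intermediate. The steadiest were Aldoc (723 to 1535 CPM, SD 0.21), Aldh1l1 (50.5 to 95.7 CPM, SD 0.20) and Gja1 (204 to 371 CPM, SD 0.16). Only Gja1 was below the median SD of genes of at least 10 CPM, which was 0.18. In bulk tissue a lower level can mean fewer astrocytes or less RNA in each, and these cannot be told apart.

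**Figure D1:**
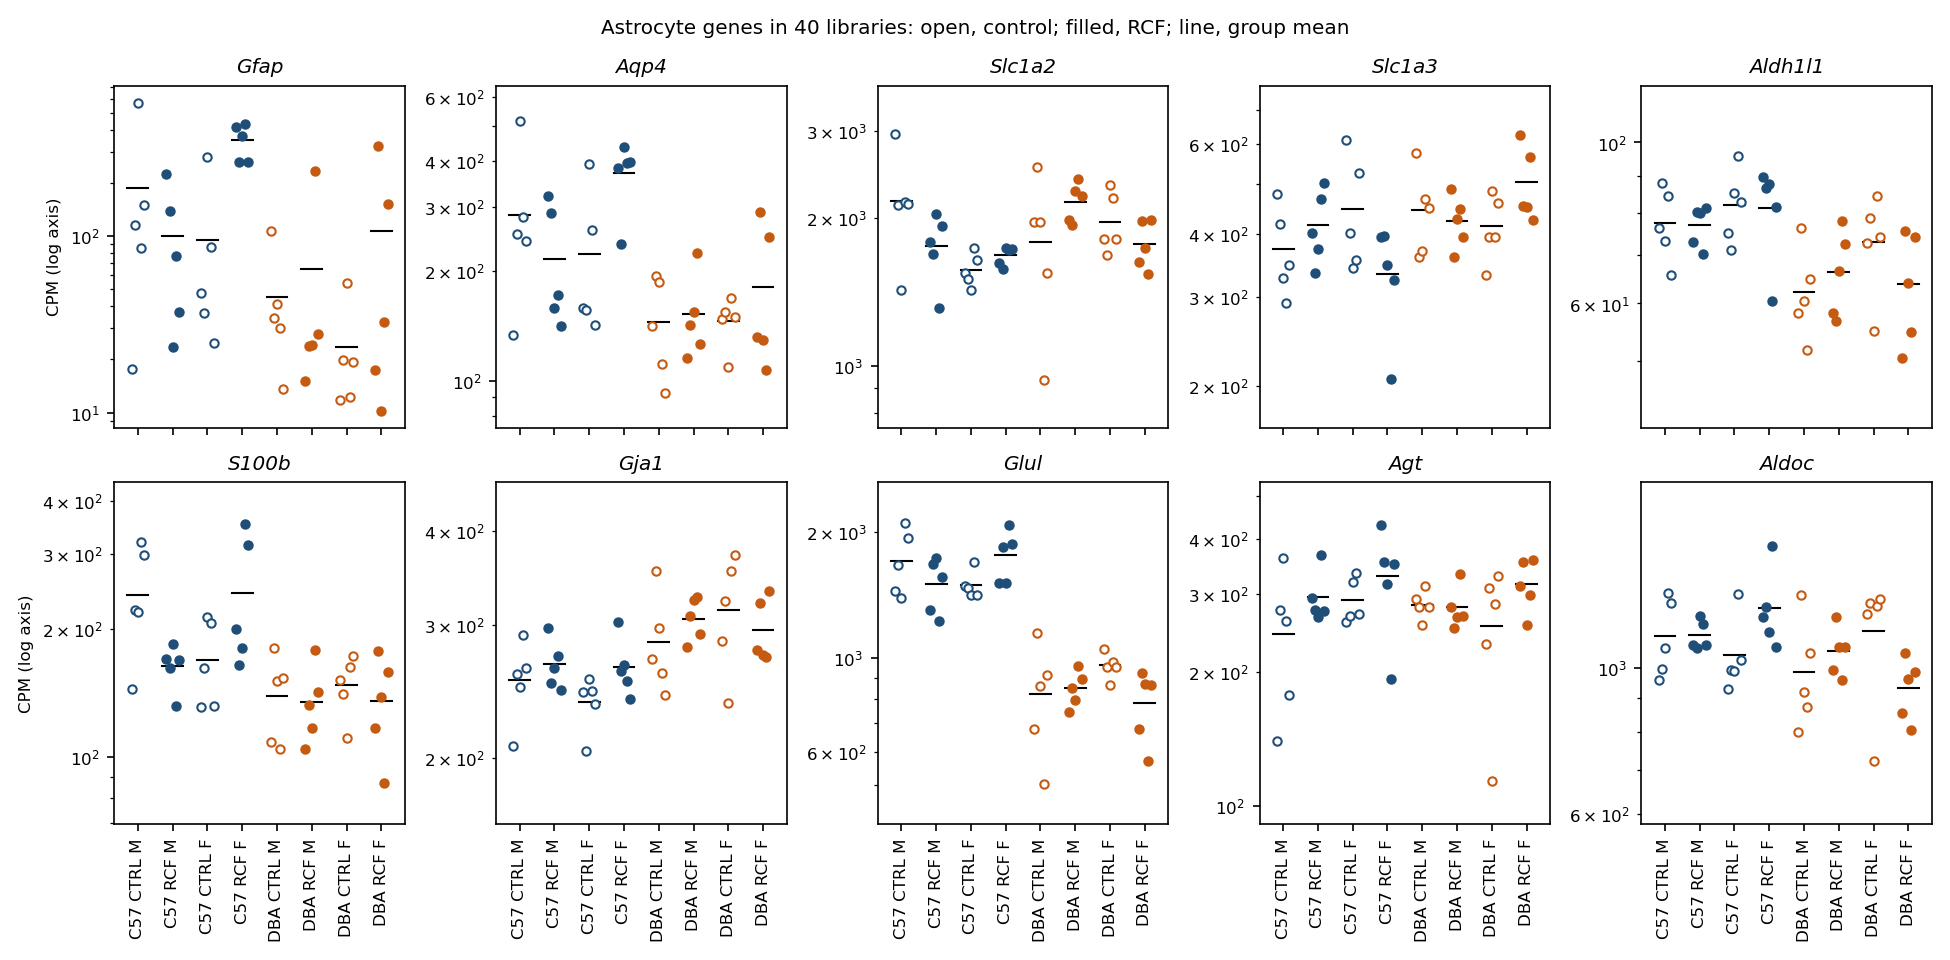
Level of each astrocyte gene in CPM (log axis, scaled separately for each gene) in the 8 groups; points are libraries, open for controls and filled for RCF, blue for C57 and orange for DBA, and lines are group means. Gfap spans 10.2 to 567 CPM, and every DBA library lies below every C57 library for Glul.

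The Gfap values of single libraries show where that spread lay. In C57 males, Gfap was at 17.6, 116, 567, 85.8 and 151 CPM in the controls (replicates 1 to 5) and at 225, 139, 23.4, 77.6 and 37.4 CPM after RCF. In C57 females it was at 47.5, 36.6, 279, 86.7 and 24.7 CPM in the controls and at 413, 263, 371, 435 and 263 CPM after RCF. Only in C57 females did RCF and control libraries nearly separate, with 4 of 5 controls below the lowest RCF library. In DBA males, the controls were at 107, 34.3, 41.3, 30.0 and 13.6 CPM and the RCF libraries at 15.1, 23.8, 24.3, 235 and 27.8 CPM. In DBA females, the controls were at 11.8, 19.8, 54.2, 12.2 and 19.4 CPM and the RCF libraries at 17.5, 325, 10.2, 32.7 and 152 CPM. A single library or a pair stood far above the others of its group in the DBA RCF groups, and the remaining libraries overlapped with the controls.

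The promoters of Agt and Gfap, named at the outset as genes known to differ between regions, are shown for comparison. That of Glul, which had the largest strain difference relative to its error, is shown as well. They are the 250 bases before the RefSeq start on GRCm38.p6, read 5′ to 3′ on the gene's strand: Agt on chromosome 8, minus strand (chr8:124569707-124569956), Glul on chromosome 1, plus strand (chr1:153899679-153899928), and Gfap on chromosome 11, minus strand (chr11:102897201-102897450). Capitals mark matches, on either strand, to a STAT motif (TTCNNNGAA), an NFI motif (TTGGC) and a TATA box (TATAAA), and the matches do not overlap. A SOX core (ACAAT) and an AP-1 motif (TGANTCA) were searched as well and were in none of these windows.
Agt: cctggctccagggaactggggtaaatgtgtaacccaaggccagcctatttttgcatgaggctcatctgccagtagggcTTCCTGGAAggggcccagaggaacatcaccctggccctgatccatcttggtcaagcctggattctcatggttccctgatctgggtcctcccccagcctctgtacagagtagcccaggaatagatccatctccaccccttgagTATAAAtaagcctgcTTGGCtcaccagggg
Glul: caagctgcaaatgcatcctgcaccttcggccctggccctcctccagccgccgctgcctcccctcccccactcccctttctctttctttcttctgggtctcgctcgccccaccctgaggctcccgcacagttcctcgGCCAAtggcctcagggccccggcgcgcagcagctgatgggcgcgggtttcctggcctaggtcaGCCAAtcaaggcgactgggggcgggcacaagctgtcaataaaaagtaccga
Gfap: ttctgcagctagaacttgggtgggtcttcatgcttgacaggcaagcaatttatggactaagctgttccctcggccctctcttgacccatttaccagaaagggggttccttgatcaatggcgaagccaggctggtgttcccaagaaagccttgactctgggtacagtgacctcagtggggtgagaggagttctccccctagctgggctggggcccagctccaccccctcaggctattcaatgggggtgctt
The Agt window held a STAT match 172 bases before the start, a TATA box 30 bases before and an NFI motif 15 bases before. The Glul window held 2 NFI motifs, both on the minus strand, and the Gfap window held none of the 5 motifs. Such matches are common: of 27025 RefSeq promoter windows of this length, 7.18% held the STAT motif, 41.9% the NFI motif, 13% the TATA box, 28.3% the SOX core and 6.87% the AP-1 motif. The windows also differed in CpG dinucleotides, with 15 in Glul, 2 in Gfap and 0 in Agt, against a median of 6. Promoters were found for 9 of the 10 genes, and a match says only that the letters are there.

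Rearing was compared first, since it was the question of the study. No astrocyte gene passed the test (edgeR, Benjamini-Hochberg adjusted p under 0.05 over all genes tested) in any of the 4 RCF comparisons. The share of all genes that passed was 0.0108% for C57 males, 0.00542% for C57 females and 0.0163% for DBA males as for DBA females, and the single gene behind the C57 female share was Slc6a5, the glycine transporter gene of hindbrain neurons. At an unadjusted p under 0.05 the astrocyte genes numbered 1 of 10 in C57 males, 4 of 10 in C57 females, 0 of 10 in DBA males and 2 of 10 in DBA females. DESeq2 and voom also called 0 of 10 in each. Among all genes tested, 7.07%, 12.5%, 6.72% and 12.3% had an unadjusted p under 0.05 in these comparisons. The 4 in C57 females were Gfap, Aqp4, Slc1a3 and S100b, the 1 in C57 males was S100b, and the 2 in DBA females were Gfap and Aldoc.

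In C57 females, mean Gfap was 349 ± 81.7 CPM after RCF and 94.97 ± 106 CPM in controls (SD, n = 5 each). The log2 fold change was 1.88 (standard error, SE, 0.90), with an edgeR adjusted p of 0.389. Aqp4 was at 384, 238, 438, 396 and 398 CPM after RCF and at 159, 156, 393, 260 and 143 CPM in controls, a log2 fold change of 0.74 (SE 0.32, edgeR adjusted p = 0.335). As with Gfap, the groups overlapped through the control replicate 3, the highest control for both genes. Th, the dopamine marker, was at 1068, 726, 841, 0.725 and 1259 CPM in these RCF libraries and at 10.7, 27.8, 1100, 557 and 29.1 CPM in the controls. The control highest for Gfap and Aqp4 was thus the control highest for Th, whereas RCF replicate 4 had the most Gfap of its group and almost no Th. With 5 tissue scores in the fit, the log2 fold change was 1.51 for Gfap and 0.27 for Aqp4.

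Slc1a3 went the other way in the same animals, at 333 ± 77.1 CPM after RCF and 447 ± 117 CPM in controls (SD, n = 5 each). The log2 fold change was -0.42 (SE 0.17, edgeR adjusted p = 0.303). With the tissue scores in the fit this value was 0.06. S100b was at 242 ± 85.6 and 169 ± 39.6 CPM, a log2 fold change of 0.52 (SE 0.22, edgeR adjusted p = 0.319), and 0.01 with the tissue scores. The sizes of the differences in Aqp4, Slc1a3 and S100b therefore depended on whether the tissue scores were in the model. These scores include a hindbrain score that rested on Slc6a5, the gene called between these groups, and an oligodendrocyte score. The parts of region content, cell type and rearing in that change cannot be told apart.

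In DBA females, Gfap gave the largest estimate of all, a log2 fold change of 2.19 (SE 0.92, edgeR adjusted p = 0.337), from 107 ± 134 CPM after RCF and 23.5 ± 17.6 CPM in controls (SD, n = 5 each). It rested on replicates 2 and 5, at 325 and 152 CPM, and 3 of 5 RCF libraries lay within the range of the controls or below it. Without replicate 2 the estimate was 1.19. Th was at 26.3, 82.5, 36.1, 29.1 and 936 CPM in RCF replicates 1 to 5, so replicate 5 was high for both Gfap and Th, and replicate 2 for Gfap with moderate Th. In males the Gfap estimates were -0.90 (SE 0.88) in C57 and 0.52 (SE 0.88) in DBA. Each turned sign without its highest library: 0.10 without C57 male control replicate 3, and -1.001 without DBA male RCF replicate 4.

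For Gja1 and Aldh1l1, the astrocyte genes of smallest spread, the 95% intervals bound the difference more tightly. The log2 fold change of Gja1 lay between -0.14 and 0.28 in C57 males and between -0.05 and 0.37 in C57 females. In DBA mice its bounds were -0.10 and 0.32 for males, and -0.30 and 0.12 for females. Aldh1l1 lay between -0.26 and 0.24 in C57 males, -0.26 and 0.24 in C57 females, with bounds of -0.16 and 0.34 for DBA males and -0.44 and 0.06 for DBA females. For Gfap the intervals ran from -2.69 to 0.89 in C57 males, 0.04 to 3.71 in C57 females, -1.27 to 2.32 in DBA males and 0.32 to 4.07 in DBA females. The design thus bounded RCF differences of Gja1 and Aldh1l1 to modest sizes, and left those of Gfap wide.

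Averaged over the 4 strain and sex combinations, 0 of 10 astrocyte genes passed, against 0.0217% of all genes. The largest mean difference was that of Gfap, a log2 fold change of 0.92 with a 95% interval from 0.02 to 1.82 and an edgeR adjusted p of 0.706. The RCF effect did not pass a test of a difference between strains (0 of 10, background 0.0108%) or between sexes (0 of 10, background 0.00542%). For Gfap, the RCF log2 fold change was greater in females than in males by 2.22 (SE 0.89, edgeR adjusted p = 0.527). Sex itself gave 0 of 10 in controls (background 0.0922%) and 0 of 10 in RCF animals (background 0.0759%). An unadjusted p under 0.05 was reached by 1 astrocyte gene for the mean RCF effect (6.95% of all genes), 0 for its difference between strains (6.003%) and 3 for its difference between sexes (8.48%). For sex it was reached by 0 in controls (10.3% of all genes) and 1 in RCF animals (7.26%).

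**Figure D2:**
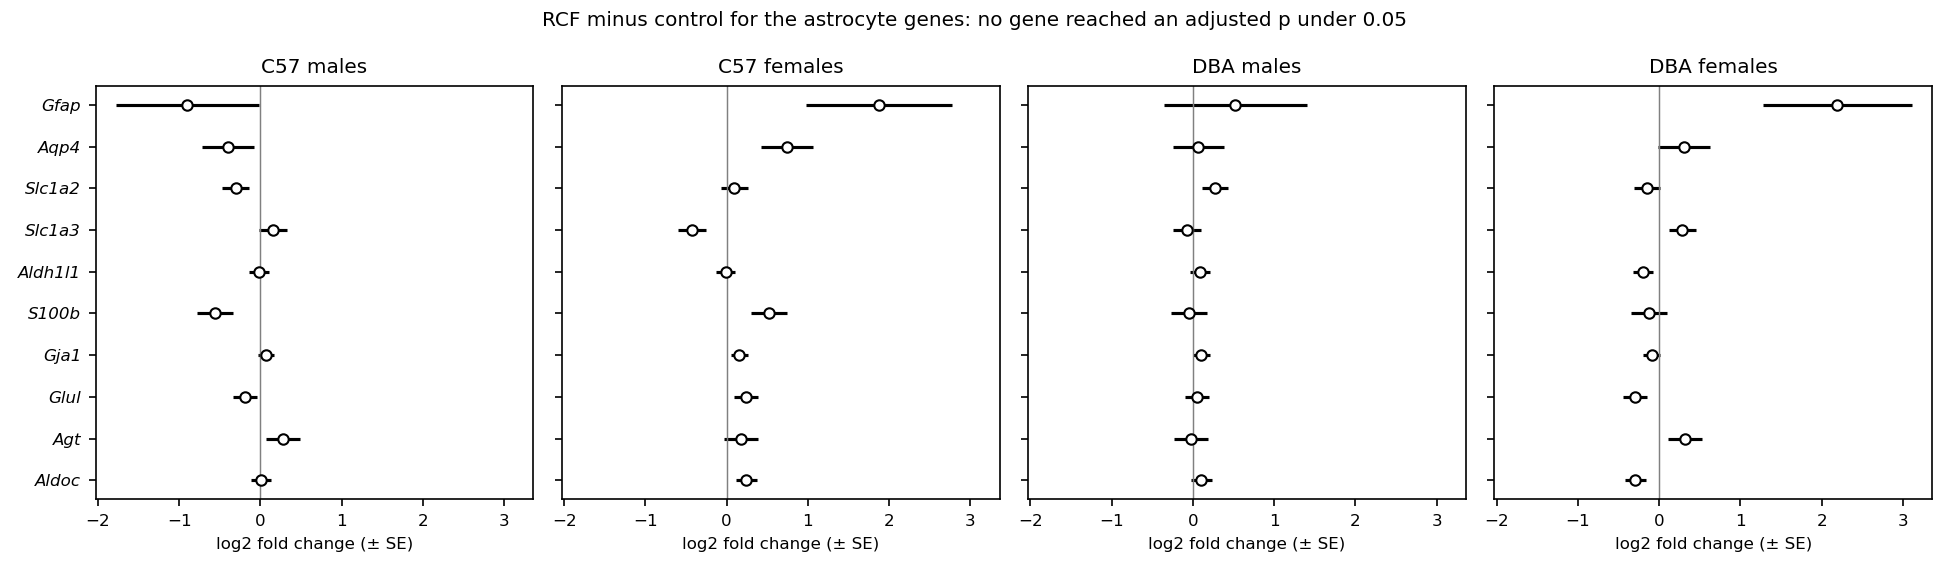
Log2 fold change of RCF against control (x axis) for each astrocyte gene in the 4 strain and sex combinations; points are edgeR estimates and bars are ± SE. All points are open because no gene reached an adjusted p under 0.05, and the bars of Gfap are the widest, with estimates from -0.90 to 2.19.

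Lists of related genes gave no call in these comparisons either, against the same low share of all genes. Of the 35 other astrocyte genes listed, 0 passed in any of the 4 RCF comparisons. The same held for the 9 tested genes of a reactive astrocyte list, which holds filament, complement and cytokine-response genes. It also held for the lists of glutamate uptake and glutamine cycling (8 genes), potassium and gap junction handling (6), anchoring of the water channel (6) and the renin-angiotensin system (9 tested). Lcn2, Timp1, Cxcl10, Ren1 and Agtr1b, with at most 38 counts in any library, were too low to test.

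Strain gave clear differences. In controls, 5 of 10 astrocyte genes passed between DBA and C57, 1 higher and 4 lower in DBA, against 16% of all genes (7.88% higher and 8.13% lower). In RCF animals 5 of 10 passed, all lower in DBA, against 23.8% of all genes (11.3% higher and 12.4% lower). The median log2 fold change of the 10 genes was -0.13 in controls and -0.26 in RCF animals, and that of all genes was 0.01 and -0.01. Glul, Aqp4 and S100b passed in both. The RCF and control comparisons use different libraries of the same strains.

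Glul, the glutamine synthetase gene, separated the strains completely. In controls it ran from 504 to 1146 CPM (median 934) in DBA and from 1395 to 2097 CPM (median 1479) in C57. In RCF animals it ran from 571 to 957 CPM (median 859) in DBA and from 1229 to 2077 CPM (median 1616) in C57. All 10 DBA libraries lay below all 10 C57 libraries in each. The log2 fold change was -0.85 (SE 0.11, edgeR adjusted p = 1.05e-07) in controls, a level 1.80-fold lower in DBA, and -0.996 (SE 0.11, edgeR adjusted p = 2.74e-09) in RCF animals, 1.99-fold lower.

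The Glul difference passed under every alternative tried and with each library left out in turn, with log2 fold changes from -0.92 to -0.69 in controls and from -1.04 to -0.80 in RCF animals. With the 5 tissue scores in the fit it was -0.69 and -0.80. Without the library of mixed strain signal it was -0.83 in controls. Exons of Teddm2 and Mir8114 overlap those of Glul, on the opposite and on the same strand; Teddm2 reached at most 2.48 CPM of total counts and Mir8114 0.17. Whether counting used strand is not given, and an uneven mapping of DBA reads to the C57-derived reference genome was not tested.

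Aqp4 was lower in DBA, at 146 ± 33.3 against 253 ± 122 CPM in controls and 167 ± 63.5 against 293 ± 111 CPM in RCF animals (SD, n = 10 each). Its log2 fold changes were -0.79 (SE 0.23, edgeR adjusted p = 0.0132) and -0.77 (SE 0.23, edgeR adjusted p = 0.0116). Here the strains overlapped: 6 of 10 C57 control libraries and 5 of 10 C57 RCF libraries lay above every DBA library of the same rearing. S100b was also lower, at 144 ± 27.1 against 205 ± 65.4 CPM in controls (log2 fold change -0.49, SE 0.15, edgeR adjusted p = 0.0244) and 135 ± 30.1 against 203 ± 71.9 CPM in RCF animals (-0.56, SE 0.15, edgeR adjusted p = 0.00741). The S100b call in controls was lost without C57 female control replicate 3 or C57 male control replicate 4 (adjusted p at most 0.0557), without the low-count filter and with the astrocyte covariate. In RCF animals the calls of Aqp4 and S100b were lost with the tissue scores, and that of Aqp4 in controls with the astrocyte covariate.

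Gfap passed in controls alone, at 34.4 ± 29.2 CPM in DBA and 141 ± 169 CPM in C57 (SD, n = 10 each), with a log2 fold change of -2.03 (SE 0.64, edgeR adjusted p = 0.0269). The call rested on few libraries. The adjusted p was at most 0.0993 with 1 library left out, and the call was lost without C57 female control replicate 3 or without C57 male control replicate 3, the libraries with 279 and 567 CPM. Of 10 other alternatives, 5 lost it: no low-count filter, the replicate block, the astrocyte covariate, voom (adjusted p = 0.0725) and the tissue scores in the fit (log2 fold change -0.95). In RCF animals the log2 fold change was -1.16 (SE 0.63, edgeR adjusted p = 0.182), and the difference between the rearings was not past the test, as given above for the interaction of strain and RCF.

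Gja1 was the exception in direction among genes that passed in controls, at 299 ± 49.0 CPM in DBA and 245 ± 25.7 CPM in C57 (SD, n = 10 each), with a log2 fold change of 0.29 (SE 0.07, edgeR adjusted p = 0.00476). In RCF animals it was at 301 ± 24.2 and 265 ± 20.9 CPM, a log2 fold change of 0.18 (SE 0.07, edgeR adjusted p = 0.0673). Aldh1l1 passed in RCF animals (-0.28, SE 0.09, edgeR adjusted p = 0.0162) and was close to it in controls (-0.24, SE 0.09, edgeR adjusted p = 0.0511). Aldoc passed narrowly in RCF animals (-0.25, SE 0.09, edgeR adjusted p = 0.0460) and lost the call in 11 of 40 fits with 1 library left out. Slc1a2, Slc1a3 and Agt did not pass in either, with log2 fold changes of 0.03, 0.07 and 0.01 in controls and 0.19, 0.31 and -0.07 in RCF animals.

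**Figure D3:**
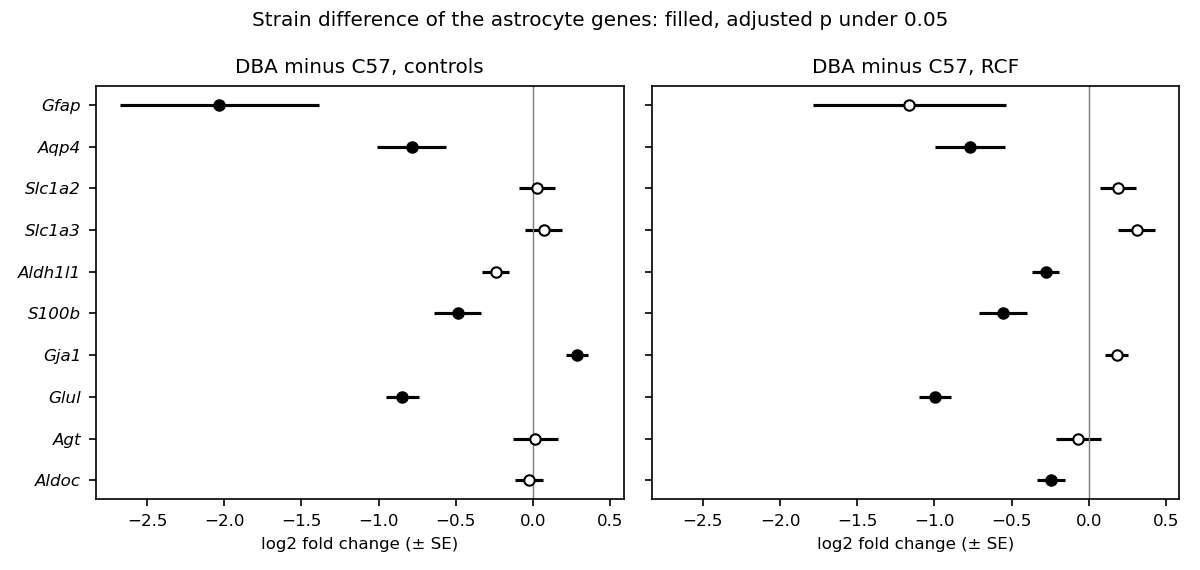
Log2 fold change of DBA against C57 (x axis) for each astrocyte gene, in controls on the left and RCF animals on the right; points are edgeR estimates, bars are ± SE, and filled points reached an adjusted p under 0.05. Glul, at -0.85 and -0.996, is far from 0 relative to its error in both, and Gja1 lies on the positive side.

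Scores of other tissue are set beside these strain differences, and their part in them was not tested. In RCF animals the dopamine neuron score, the mean log2 CPM of a list of 12 dopamine genes, was 4.22 ± 1.55 in DBA and 6.25 ± 2.49 in C57, and the oligodendrocyte score was 8.01 ± 0.44 in DBA and 8.58 ± 0.43 in C57 (SD, n = 10 each). In controls these scores were 4.11 ± 1.93 against 4.98 ± 2.14 and 8.08 ± 0.64 against 8.48 ± 0.58. The hypothalamic score, on which Aqp4 and S100b fell, had the opposite order, with 2.95 ± 1.23 in DBA and 1.41 ± 1.34 in C57 in RCF animals and 2.81 ± 1.51 against 2.10 ± 1.55 in controls. The meninges score was 1.501 ± 0.64 in DBA and 2.56 ± 0.93 in C57 in controls, and 2.01 ± 0.45 against 2.67 ± 0.94 in RCF animals. Microglia genes passed in 4 of 10 in controls and 8 of 10 in RCF animals, all lower in DBA, and endothelial genes in 8 of 9 and 5 of 9, all lower. Of all genes, 8.13% were lower in DBA in controls and 12.4% in RCF animals. With 5 tissue scores in the fit, Glul alone of the 10 astrocyte genes passed in RCF animals. In controls the calls of Glul, Aqp4, S100b and Gja1 held with those scores, and that of Gfap was lost. With the mean of 35 other astrocyte genes as a covariate, Glul and Gja1 passed in controls. In RCF animals the calls of Glul, Aqp4, S100b and Aldh1l1 held with that covariate, and that of Aldoc was lost.

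Of those 35 other astrocyte genes, 9 were lower and 0 higher in DBA controls, against 8.13% and 7.88% of all genes. In DBA RCF animals 9 were lower and 1 higher, against 12.4% and 11.3% of all genes. In either direction, 16% of all genes were called in controls and 23.8% in RCF animals. Cbs, which makes cystathionine from homocysteine, had a log2 fold change of -0.31 in controls and -0.32 in RCF animals. F3, the coagulation tissue factor, had -0.33 and -0.39. The gene that was higher was Kcnj10, the Kir4.1 potassium channel of astrocytes, at 0.67 in RCF animals (edgeR adjusted p = 8.84e-05).

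Reactive astrocyte genes differed by strain in both directions, with 1 of 9 higher and 4 of 9 lower in DBA in each rearing. Of all genes, 7.88% were higher and 8.13% lower in controls, and 11.3% and 12.4% in RCF animals. Serpina3n, a serine protease inhibitor gene, was higher, at 69.4 ± 9.92 CPM in DBA and 26.5 ± 5.86 CPM in C57 (SD, n = 20 each), with log2 fold changes of 1.40 in controls and 1.38 in RCF animals (edgeR adjusted p = 3.99e-11 and 4.58e-11). Nes, which encodes the filament protein nestin, was lower, at 9.96 ± 2.52 and 18.3 ± 2.89 CPM, with log2 fold changes of -0.89 and -0.87 (edgeR adjusted p = 5.41e-06 and 7.08e-06). S100a10, a partner of annexin A2, was lower as well, with log2 fold changes of -0.84 and -0.95. Among genes around Glul and Agt, Glud1, glutamate dehydrogenase, was higher in DBA (0.20 and 0.22), and Enpep, an angiotensin-cleaving aminopeptidase, was lower (-0.71 and -0.62).

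Region content was then set against each gene by a slope on a tissue score, with the group means removed by the model, as a log2 change per log2 unit of score. Scores were the mean log2 CPM of dopamine neuron genes (12 genes), hypothalamic and mammillary genes (11 tested), forebrain glutamate neuron genes (10), myelinating oligodendrocyte genes (14) and hindbrain genes, where only Slc6a5 passed the filter. None holds a member. Over the 40 libraries, after group means were removed, the dopamine score had a Pearson r of -0.50 with the hypothalamic and -0.51 with the forebrain score. The hypothalamic score had an r of -0.56 with the oligodendrocyte score. The slopes are therefore not separate tests of each region or cell type. All scores come from the same libraries as the genes, and a share of RNA taken by 1 tissue lowers the share of the rest.

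Of the 10 astrocyte genes, Agt was the most sharply tied to the forebrain score. It was at 113, 140, 177 and 194 CPM in the 4 libraries with Slc17a7 above 400 CPM, the 4 lowest Agt values of the 40. The other 36 libraries lay between 231 and 429 CPM. The slope on the forebrain score was -0.25 (SE 0.03, edgeR adjusted p = 1.21e-06). Without those 4 libraries it was -0.06 (SE 0.07, edgeR adjusted p = 0.896), so the relation rested on them. Gja1 also fell on this score, by a slope of -0.08 (SE 0.02, edgeR adjusted p = 0.0126), and was no longer called without them, so 2 of 10 astrocyte genes passed with all libraries, against 14.4% of all genes (9.61% higher and 4.83% lower), and 0 of 10 without the 4. Over the whole table the number of genes called on this score went from 2663 to 3 without them.

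The same 4 libraries were not low for every astrocyte gene. Slc1a2 was at 2968 and 2333 CPM in C57 male control replicate 1 and DBA female control replicate 3, ranking 40 and 37 of 40 from the lowest. S100b, Glul and Aldoc were at 353, 2077 and 1535 CPM in C57 female RCF replicate 4, ranks 40, 39 and 40, whereas Slc1a3 was at 207 CPM there, the lowest of all. That library had almost no Th and the highest hindbrain score, 5.83. The forebrain score was at most 4.14 in any C57 RCF library, against 6.74 in C57 male control replicate 1. Which tissue the Slc17a7 of C57 female RCF replicate 4 came from was not tested. Of the astrocyte genes that differ between regions in a separate list of 6, Lhx2, a forebrain transcription factor gene, rose with the forebrain score by a slope of 1.15 (edgeR adjusted p = 1.96e-10). In that list Slc6a11, the GABA transporter GAT3, and Sparc, a matrix protein gene, fell, with slopes of -0.17 and -0.15 (edgeR adjusted p = 0.000175 and 8.40e-06). Mfge8, Slc6a9 and Itih3, the rest of that list, did not pass on this score. Of all genes, 14.4% passed on it (9.61% higher and 4.83% lower). Lhx2 was at 0.13 to 34.6 CPM, and which cells it came from was not tested. These slopes used all 40 libraries, and without the 4 libraries only 3 genes of the whole table were called on this score.

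**Figure D4:**
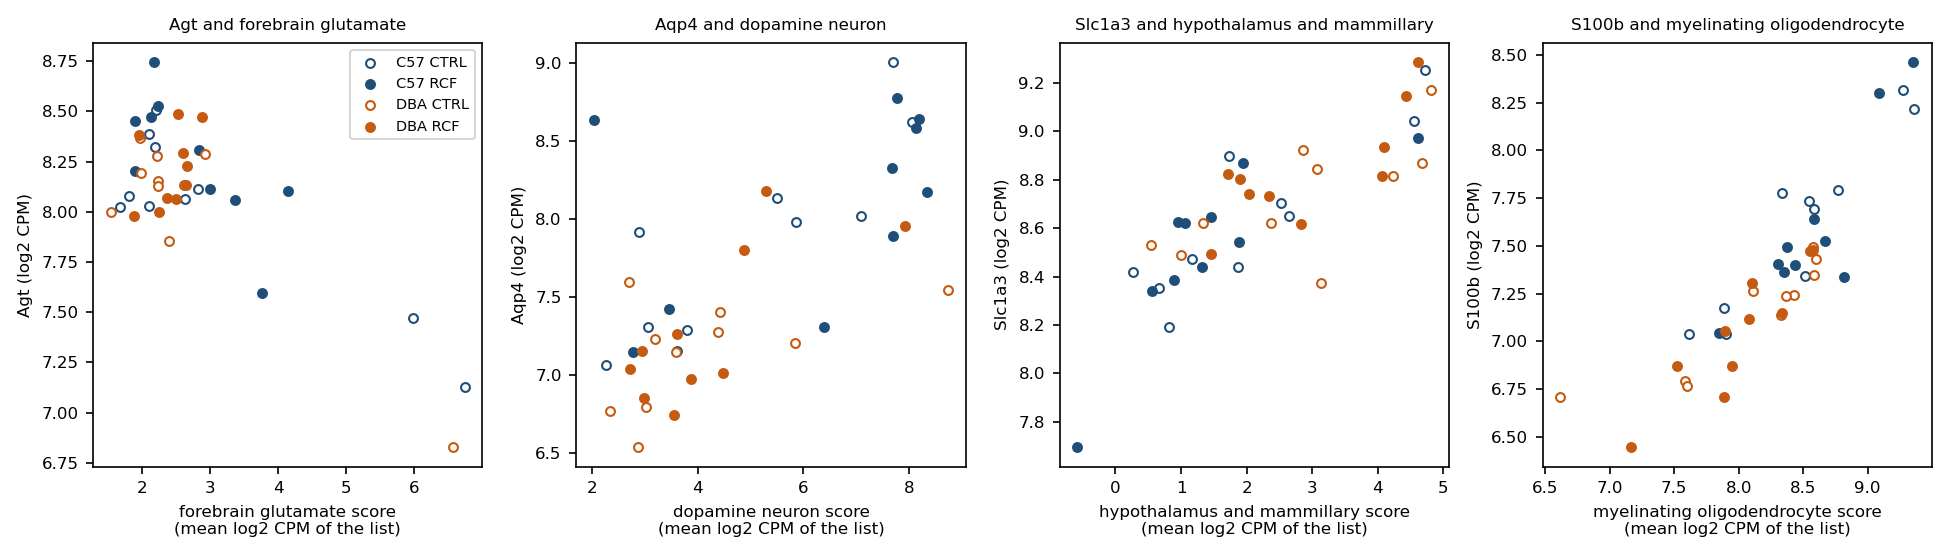
Level of an astrocyte gene (y axis, log2 CPM) against a tissue score (x axis, mean log2 CPM of the score's genes) in 40 libraries; points are libraries, open for controls and filled for RCF, blue for C57 and orange for DBA. Agt is lowest in the libraries with high forebrain scores, and S100b rises across the whole range of the oligodendrocyte score.

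Aqp4 followed the dopamine and hypothalamic scores in opposite directions. In C57 it was at 288 to 438 CPM (median 393) in the 5 libraries with the highest dopamine score and at 134 to 396 CPM (median 159) in the 5 with the lowest, and in DBA at 148 to 290 (median 223) and 92.8 to 194 CPM (median 131). By hypothalamic score it was at 142 to 253 CPM in the highest 5 and 280.4 to 514 CPM in the lowest 5 of C57, and at 92.8 to 141.7 and 142.2 to 290 CPM in those of DBA. The libraries at either end of the hypothalamic score did not overlap in either strain, whereas those of the dopamine score did. The slope was 0.15 on the dopamine score (SE 0.03, edgeR adjusted p = 0.0007995) and -0.27 on the hypothalamic score (SE 0.04, edgeR adjusted p = 0.000230). In C57 female RCF replicate 4 the dopamine score was the lowest of all and Aqp4 was at 396 CPM, which made the overlap in C57.

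On the dopamine score, Aldh1l1 (slope 0.05, SE 0.01, edgeR adjusted p = 0.0264) and Agt (0.08, SE 0.03, edgeR adjusted p = 0.0386) also rose, giving 3 of 10, all higher, against 13.1% of all genes (5.85% higher and 7.26% lower). Both were lost without the 4 libraries with high Slc17a7, with slopes of 0.03 and 0.01. With all 5 scores in a single fit, the calls of Aqp4 (slope 0.08), Aldh1l1 and Agt were all lost, and Aldoc alone was called, with a slope of -0.05 (edgeR adjusted p = 0.0312). Gfap had a steeper slope, 0.27 (SE 0.11, edgeR adjusted p = 0.0851), which did not pass. Without those 4 libraries the Gfap slope was 0.46 (SE 0.13, edgeR adjusted p = 0.0135) and passed. Among them, C57 female RCF replicate 4 had 435 CPM of Gfap at the lowest dopamine score, 2.04.

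Slc1a3 gave the firmest relation to the hypothalamic score. In C57 it was at 402 to 611 CPM in the 5 libraries with the highest score and at 207 to 342 CPM in the 5 with the lowest, which did not overlap. In DBA it was at 450.1 to 625 and 359 to 454 CPM, which overlapped slightly. The slope was 0.15 (SE 0.02, edgeR adjusted p = 7.91e-05), and it passed under every alternative tried, from 0.11 to 0.16. S100b fell on this score (slope -0.15, SE 0.04, edgeR adjusted p = 0.00953), so 3 of 10 passed, 1 higher and 2 lower, against 9.89% of all genes (4.25% higher and 5.63% lower). With all 5 scores in a single fit, S100b and Aqp4 were no longer called on it and Slc1a3 was, while the number of genes called over the whole table went from 1823 to 203. Gfap had a slope of -0.52 (SE 0.18, edgeR adjusted p = 0.0555). Without the 4 libraries with high Slc17a7, Gfap, Gja1 and Aldoc passed too, with slopes of -0.53, -0.05 and -0.06. The astrocyte genes called then numbered 6 of 10, and 2898 genes were called over all those tested.

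Most of the astrocyte genes varied with the oligodendrocyte score: 7 of 10 passed, 6 higher and 1 lower, against 20.2% of all genes (9.48% higher and 10.8% lower). S100b was at 162 to 353 CPM (median 315) in the 5 C57 libraries with the highest score and at 131 to 170 CPM (median 132) in the 5 with the lowest. In DBA it was at 163 to 180 CPM (median 177) and 87.0 to 117 CPM (median 109), without overlap. Its slope was 0.62 (SE 0.05, edgeR adjusted p = 3.39e-11). Glul had a slope of 0.42 (SE 0.04, edgeR adjusted p = 3.89e-09). Both are also oligodendrocyte genes, as given above, and both passed under every alternative tried.

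Aqp4 (0.49), Aldoc (0.25), Aldh1l1 (0.18) and Gja1 (0.15) rose on the oligodendrocyte score as well, with edgeR adjusted p-values of 0.0257, 0.00180, 0.0340 and 0.0376. With 1 library left out, the call was lost in 3 of 40 fits for Aqp4, 9 of 40 for Aldh1l1 and 8 of 40 for Gja1. Of 10 other alternatives it was lost in 5 for Aqp4, where the slope went down to 0.11, in 5 for Aldh1l1 and in 7 for Gja1. Aldoc lost the call with the astrocyte covariate alone. Slc1a3 fell, with a slope of -0.36 (SE 0.07, edgeR adjusted p = 0.000345). Of the 10 other alternatives, its call was lost with all 5 scores in a single fit, and its slope ran from -0.52 to -0.15 over them. The oligodendrocyte score also had a Pearson r of 0.72 with the mean of the 35 other astrocyte genes, of which 18 rose and 0 fell on it. An example is Hepacam (0.39), a cell adhesion protein that partners Mlc1. With that mean as a covariate, 3 of the 10 astrocyte genes were called, and Aldh1l1 and Gja1 had slopes of -0.07 and -0.03. On the hindbrain score 0 of 10 passed, against 0.0325% of all genes, with 2 of 10 at an unadjusted p under 0.05, as had 9.80% of all genes.

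**Figure D5:**
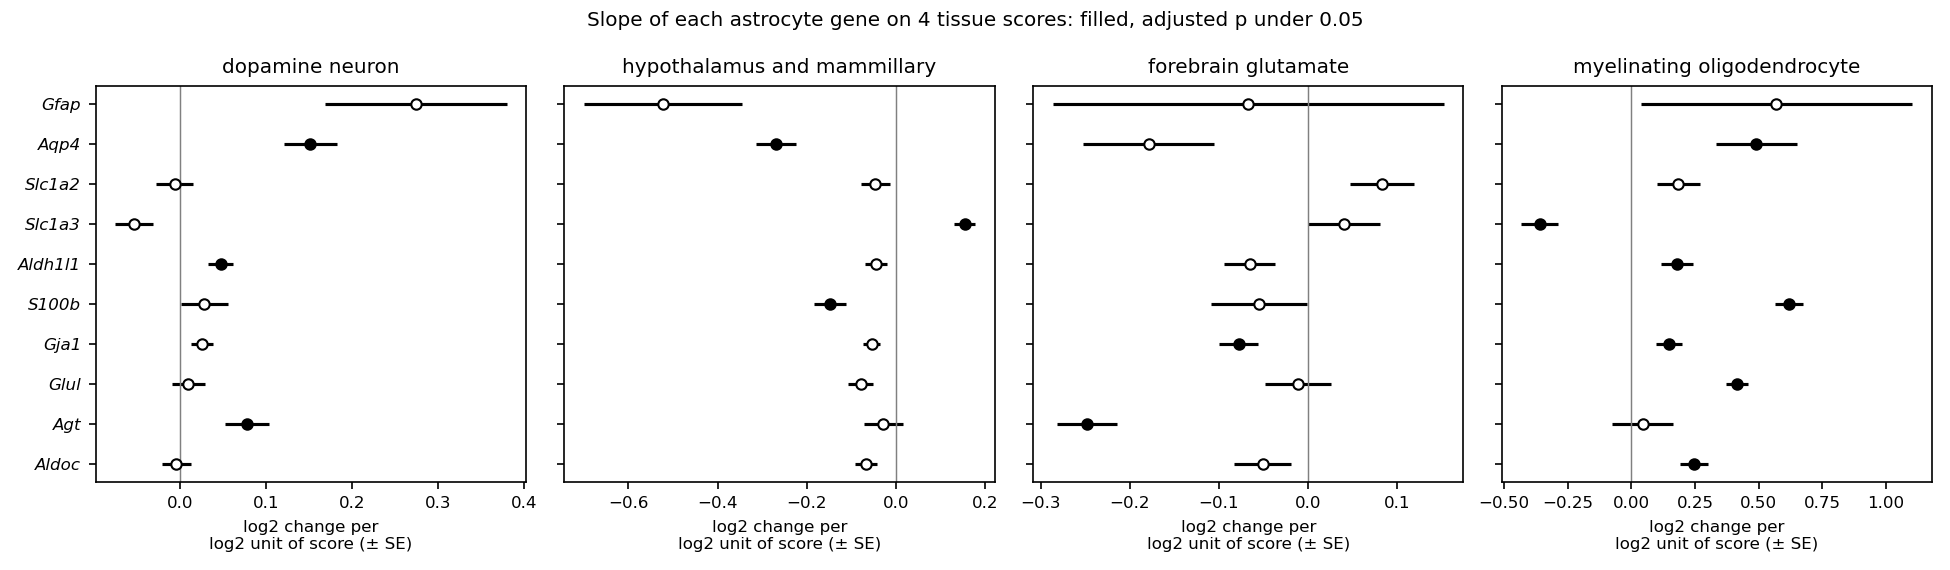
Slope of each astrocyte gene (x axis, log2 change per log2 unit of score) on 4 tissue scores; points are edgeR estimates with group means in the model, bars are ± SE, and filled points reached an adjusted p under 0.05. Agt is lowest on the forebrain score at -0.25, and S100b is highest among called genes on the oligodendrocyte score at 0.62.

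Deviations from group means show which astrocyte genes moved together across the 40 libraries, which share these tissue differences and their sequencing. Gfap and Aqp4 had a Pearson r of 0.79 and S100b and Glul one of 0.75, the highest pairs among the 10 genes. Slc1a3 had an r of -0.73 with S100b, -0.61 with Aldoc, -0.57 with Aqp4 and -0.55 with Glul. The glutamate transporter pair, Slc1a2 and Slc1a3, had an r of -0.03. The 10 genes thus did not rise and fall as a block.

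Over all genes tested, those most like each astrocyte gene were as follows, all by Pearson r over 40 libraries. For Gfap they were Slc36a2 (0.85), Id3 (0.83), an inhibitor of DNA-binding transcription factors, and Aqp4 (0.79). For Aqp4 they were Il6st (0.88), the shared receptor subunit of the interleukin-6 family, Lcat (0.82) and Lrp10 (0.81). For S100b they were Elovl1 (0.94), a fatty acid elongase, Tmem63a (0.93) and Rffl (0.92), and for Glul they were Pip4k2a (0.92), Psat1 (0.91), of serine synthesis, and Fermt2 (0.91). The genes like S100b reached the highest values of any member. Agt was most like Fads2 (0.86), a fatty acid desaturase, Gnai2 (0.83) and Smoc1 (0.83). For Gja1 they were Sfxn5 (0.80), Timp4 (0.77) and Slc39a12 (0.74), the lowest values among the 10, and Gja1 also had the smallest spread. Aldh1l1 was most like Pcx (0.84), Fads1 (0.81) and Axl (0.80), and Aldoc most like Rnd2 (0.85), Psmc5 (0.83) and Steap2 (0.83). The transporters had no gene in common, with Atrn (0.86), Sort1 (0.85) and Shc3 (0.85) for Slc1a2 and Pnma1 (0.86), Klhl26 (0.85) and Ss18l1 (0.85) for Slc1a3.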

How the data were processed

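Per the labels' protocols, RNA from frozen punches was made into libraries with the strand-keeping Universal Plus mRNA-Seq kit and sequenced as single 75 nt reads. FastQC, cutadapt 1.11, bcl2fastq 2.20 and the genome build GRCm38 (mm10) are named by the submitters' processing notes. For the aligner, the counter and its strand setting, a name is not given in the sources used here. Whole-number read counts per gene, not normalized, were deposited by the authors.

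Symbols came from the GENCODE annotation (54487 genes by versioned identifier, 657 without the version, 327 unmatched). Low counts were filtered with filterByExpr, and the remaining genes were fitted with edgeR 4.0.16 (R 4.3.3; TMM factors 0.905 to 1.09; robust quasi-likelihood F test; 32 residual degrees of freedom). All 40 libraries entered, with a mean per group, and p-values were adjusted by Benjamini-Hochberg over all genes. Fits with a tissue score added 1 slope. Log2 CPM used a prior count of 2. Alternatives used DESeq2 1.42.0 and voom of limma 3.58.1. Chi-square values per degree of freedom of 5.51 to 141 between the counts of 80 pairs of libraries of a group exceeded sampling noise.

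Levels at the ends of a tissue score are those of the 5 libraries of each strain with the highest and the lowest score. The script was tested on simulated counts. All 10 members were tested in every comparison, and not all are named in the text for each. From other lists at most 3 genes in each direction, by smallest p, are named, and for each member the 3 genes of highest Pearson r, unnamed gene models left out. The members and lists were chosen with earlier results of these data known.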

Additional observations from a re-analysis of the deposited data

Results flagged for a closer look

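In groups of 5 libraries, a value was singled out where its gap to the nearest other value exceeded 0.710 of the group's range (Dixon's critical value). This marked 10 of 80 combinations of gene and group, in 8 libraries. The critical value marks about 1 in 20 where values are independent and normally distributed. Gfap values in CPM are skewed and the genes share libraries, so an excess over that rate cannot be read from the count. Gfap was high at 279 CPM in C57 female control replicate 3 (next 86.7), at 567 CPM in C57 male control replicate 3 (next 151), at 54.2 CPM in DBA female control replicate 3 (next 19.8) and at 235 CPM in DBA male RCF replicate 4 (next 27.8). Aqp4 was low at 238 CPM in C57 female RCF replicate 2 (next 384). Aldh1l1 was low at 60.6 CPM in C57 female RCF replicate 4 (next 81.5). Glul and Aldoc were high at 1691 and 1297 CPM in C57 female control replicate 4 (next 1486 and 1028). Agt was high at 369 CPM in C57 male RCF replicate 4 (next 295). Aldoc was low at 723 CPM in DBA female control replicate 3 (next 1208), a library with Slc17a7 above 400 CPM.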

How the results depend on the processing

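Counts of called astrocyte genes were within 1.5 times the reported count in 148 of 161 recomputations and in 633 of 640 with 1 library left out. Most of these are RCF, sex and hindbrain score counts, which were 0 in the main fit. Every departure was in a strain count or in a count on another tissue score, so those counts were less stable than these totals. The RCF and sex counts stayed at 0 throughout. Sign changes between values within 1 SE of 0 (95 in all) were not treated as reversals.

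The strain count in controls was 3 without the low-count filter and 2 with the astrocyte covariate, and that in RCF animals was 1 with the tissue scores. With all 5 scores in a single fit the counts were 1 on the dopamine, 1 on the hypothalamic, 4 on the forebrain and 3 on the oligodendrocyte score. The oligodendrocyte count was 3 with the astrocyte covariate. DESeq2 gave 7 on the hypothalamic score. Without the 2 libraries farthest from the median score, the counts were 1 on the forebrain and 4 on the oligodendrocyte score. Without the 4 libraries with Slc17a7 above 400 CPM, chosen after seeing the data, they were 6 on the hypothalamic and 0 on the forebrain score. With 1 library left out, counts ran from 3 to 6 for strain in controls, 3 to 6 on the hypothalamic, 1 to 3 on the forebrain and 4 to 7 on the oligodendrocyte score. The lowest strain count came without C57 female control replicate 3.

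Signs turned with the astrocyte covariate for Gja1 by RCF in DBA males (-0.00541), S100b and Glul on the forebrain score (0.0113 and 0.0515), and Aldh1l1, Gja1 and Agt on the oligodendrocyte score (-0.0678, -0.0292 and -0.20). With the tissue scores they turned for Glul and Slc1a3 by RCF in C57 males and C57 females (0.00128 and 0.0631), S100b by RCF in DBA females (0.14) and Slc1a3 by strain in RCF animals (-0.0177). In the fit of all 5 scores they turned for S100b, Gja1 and Glul on the dopamine score (-0.0117, -0.0214 and -0.0151) and Aldh1l1 on the hypothalamic score (0.0143). On the forebrain score, Slc1a3, S100b and Aldoc turned without the 2 farthest libraries (-0.0455, 0.0642 and 0.0491), and Aldh1l1 and Aldoc without the 4 libraries (0.0542 and 0.00617). Agt by RCF in C57 males was -0.0171 without those 4. With 1 library left out, Gfap by RCF ran from -1.44 to 0.10 in C57 males and from -1.001 to 1.12 in DBA males, and Aldoc on the forebrain score from -0.0730 to 0.0114. The cause was not tested.

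The libraries' replicate numbers did not pair them: correlations of same-numbered libraries ran from -0.69 to 0.71 (median -0.02), 49 of 140 over 0.1. With a replicate block, 4 astrocyte genes were called by strain in controls and 6 in RCF animals, and 5 on the oligodendrocyte score. The hindbrain score rested on 1 gene; with all 10 listed genes, 2214 genes were called on it, against 6. Depth did not limit these genes, whose lowest count was 250. The numbers of genes called over the whole table by RCF in C57 females were 1 with edgeR and 88 with DESeq2, and 0 of the 10 in both.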
